A study of Physcomitrium patens with 5 samples.

Results

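The loci described here are those of the moss Physcomitrium patens whose transcripts were at least 3-fold lower in every library treated with the inducer β-estradiol than in any control library. They were chosen from the authors' deposited table of RPKM (reads scaled to the length of a locus and to the library total). A locus was taken if its maxMultiRatio was 0 and it was at least 0.5 kb long. Its mean RPKM in DMSO had to be under 200, its lower DMSO value at least 1 RPKM, and that value at least 3 times its highest value in β-estradiol. This gave 163 of 31775 listed loci. Leaving the ratio aside, 12959 loci met the rule, so the set holds 1.26% of them, and the remaining 12796 serve as the comparison below.

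All libraries came from 1 inducible PpARFC2 overexpressor line, grown as protonemata and aged 7 days. The control group (2 libraries, DMSO 1 and DMSO 2) received 0.01% DMSO, the solvent, for 16 hours. The treated group (3 libraries, β-estradiol 1 to 3) received 1 µM β-estradiol for 16 hours. Its columns carry the name XVE, the usual name of an estradiol-responsive activator used in plants, and the labels name neither a promoter nor the number of clones behind the line. Effects of PpARFC2 and of the inducer itself cannot be told apart, since both groups carry the construct and no line without it was used here. Nothing in the labels places the replicates in separate cultures, so their spread may be technical.

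Protonemata are the branching filaments with which a moss begins its life. They are made of chloroplast-rich chloronemal cells and faster-growing caulonemal cells, and buds on the filaments grow into leafy gametophores. Auxin response factors control transcription at promoters that answer to the hormone auxin. Members of class C, to which PpARFC2 belongs, are known in plants as targets of the microRNA miR160 and as factors that can hold down auxin responses. The files give IDs without gene names, and 0 of 31775 IDs matched the RefSeq table of 27567 genes. No function is therefore given to any locus, and the induced gene PpARFC2 itself was not analysed here. In whole filaments, fewer cells of a type and less RNA per cell cannot be told apart.

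The values that chose the loci are given first, as a description. The 163 loci had a median of 3.63 RPKM in DMSO 1 and 5.78 RPKM in DMSO 2. The medians in β-estradiol 1, 2 and 3 were 0.563, 0.527 and 0.530 RPKM. The medians of the treated libraries thus lay close together and those of the control libraries did not. Single loci spread more widely. The log2 ratio of β-estradiol 1 to the mean of β-estradiol 2 and 3, with 0.05 RPKM added, had quartiles of -0.40 and 0.39 in the set. In the comparison loci they were -0.19 and 0.18. By rule no locus had overlapping groups, whereas among all 17429 tested loci 20.8% had both DMSO libraries above all β-estradiol libraries.

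**Figure D1:**
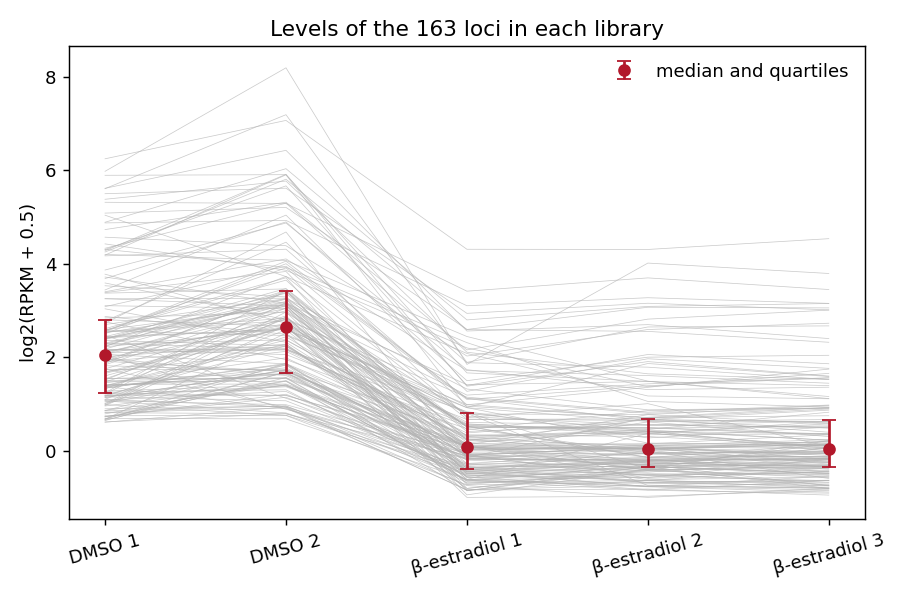
Each grey line is 1 of the 163 loci, with its level as log2(RPKM + 0.5) in the 2 DMSO and 3 β-estradiol libraries. Red points are medians with quartiles. The medians of the treated libraries are level with each other, and DMSO 2 stands above DMSO 1.

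Most of these transcripts were of modest abundance in control filaments. Their mean in DMSO ranged from 1.11 to 178 RPKM, with a median of 4.56 and quartiles of 2.37 and 8.90. The comparison loci had almost the same median, 4.49 RPKM, and quartiles of 2.56 and 8.96. At 10 RPKM and over lay 37 of the 163, and at 50 RPKM and over 5. The share of loci that met the ratio was similar at most levels. It was 1.5% of loci with a DMSO mean of 1 to 2 RPKM, 1.17% from 2 to 5, 1.23% from 5 to 10 and 0.989% from 10 to 20. It was 1.91% from 20 to 50 RPKM and 1.02% from 50 to 200.

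Transcripts were at a small part of the control level in the treated filaments and were seldom missing altogether. The mean in β-estradiol was a median of 12.5% of the mean in DMSO, with quartiles of 8.12% and 18.0%. It was under 5% for 21 loci, under 10% for 53 and at least 25% for 12, with extremes of 0.589% and 30.8%. All 3 β-estradiol libraries were under 1 RPKM for 107 loci and under 0.1 RPKM for 4. Reads recovered from RPKM and length had medians of 529 and 549 per locus in DMSO and of 79, 50 and 46 in β-estradiol. At least 10 reads in each treated library were counted for 146 loci. No locus had 3 or fewer reads in all of them, and 2 loci had a treated library without a read. Mates of a fragment appear to be counted separately, so these reads stand for fewer fragments.

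**Figure D2:**
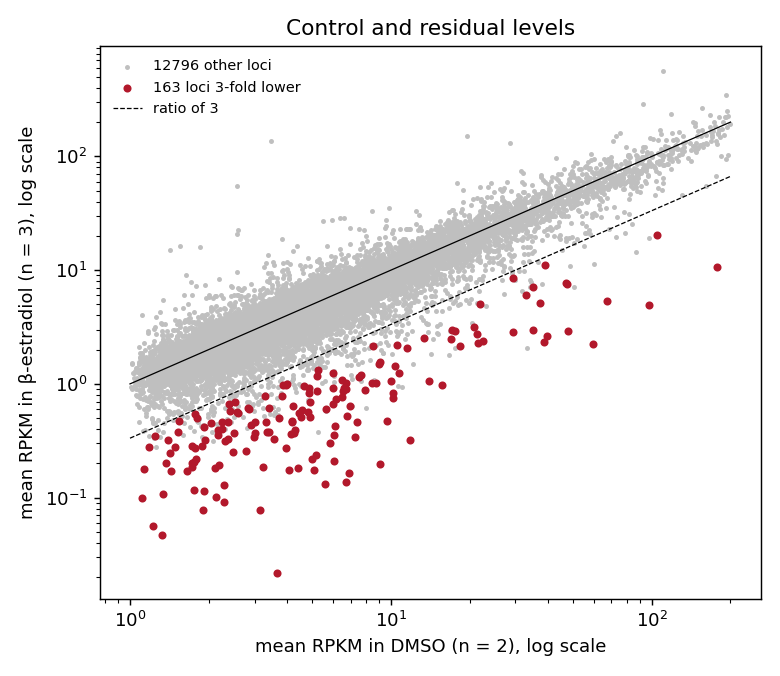
Mean RPKM in DMSO (n = 2) against mean RPKM in β-estradiol (n = 3) on log scales, for the 163 loci (red) and the 12796 others (grey). The solid line marks equal levels and the dashed line a ratio of 3. The red points spread along the whole range of control levels, from 1.11 to 178 RPKM.

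On the log2(RPKM + 0.5) scale the median change was -2.15, with quartiles of -2.54 and -1.68 and a range of -4.47 to -1.04. This scale understates the change of low loci. The change on it went with the control level (Spearman's rho -0.79 across the 163 loci, which share the same libraries), as the added constant favours. The lowest DMSO value was at least 4 times the highest β-estradiol value for 85 loci, at least 10 times for 22 and at least 20 times for 5.

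On the log2(RPKM + 0.5) scale, Pp3c23_15870 (1.544 kb) had the largest change of the set. The share of its control level that was left was 3.77%, and other loci of the set kept a smaller share. Its levels were 59.1 and 59.6 RPKM in the DMSO libraries and 2.67, 2.30 and 1.73 RPKM in the β-estradiol libraries. The controls were almost equal and the treated libraries lay far below them. The means were 59.4 ± 0.391 RPKM (SD, n = 2) and 2.24 ± 0.473 RPKM (SD, n = 3), a log2 change of -4.47.

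Pp3c25_760 (3.205 kb) followed, with 48.4 RPKM in DMSO 1 and 146 RPKM in DMSO 2. It had 3.21, 5.77 and 5.88 RPKM in β-estradiol 1, 2 and 3. The controls differed widely, and the library numbered 1 was the lowest of each group. The log2 change was -4.00, and it was -3.21 without DMSO 2 and -4.79 without DMSO 1. These 2 are named as the largest changes on this scale. Other loci were singled out after their values were seen and are described by prefix and length, or by locus number where they lay close together.

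The most abundant locus of the set, 1.864 kb long under Pp3c26, showed the same arrangement more strongly. Its levels were 62.7 and 293 RPKM in DMSO 1 and 2, and 3.10, 15.7 and 13.4 RPKM in β-estradiol 1, 2 and 3. Both treatments were lower in the library numbered 1, and the ratio of control to treated was 20.3 in the pair of libraries numbered 1 and 20.2 for DMSO 2 over the average of the other treated libraries. The next in level, 1.304 kb under Pp3c22, had 75.6 and 134 RPKM in DMSO and the highest residual level of the set, 19.4, 19.3 and 22.8 RPKM.

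Among loci of 5 to 15 RPKM in DMSO, several were under 0.5 RPKM in every treated library. A 1.734-kb locus under Pp3c4 had 9.96 and 13.8 RPKM in DMSO and 0.402, 0.307 and 0.263 RPKM in β-estradiol. A 3.624-kb locus under Pp3c18 had 5.61 and 12.5 RPKM in DMSO and 0.173, 0.189 and 0.237 RPKM in β-estradiol. The treated levels came from 39, 21 and 17 reads for the locus under Pp3c4, and from 35, 27 and 32 for that under Pp3c18. A 1.362-kb locus under Pp3c7 had 5.26 and 8.22 RPKM in DMSO, from 403 and 425 reads. It had 0.0525, 0.261 and 0.0983 RPKM in β-estradiol, from 4, 14 and 5 reads, so its residual level is known only roughly.

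The smallest residual share, 0.589%, belonged to a 2.874-kb locus under Pp3c20. It had 235 and 641 reads in the DMSO libraries and 0, 1 and 6 in the β-estradiol libraries. Its DMSO levels were 1.45 and 5.88 RPKM. The other locus with an empty treated library, 2.979 kb under Pp3c9, had 172 and 160 reads in DMSO and 16, 0 and 8 in β-estradiol. A count of 3 reads over 1 kb stands for 0.0533 RPKM in the deepest library and 0.0804 RPKM in the shallowest. This limit covers counting error only, and with mates counted separately such reads can come from fewer fragments.

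At the edge of the rule, the locus closest inside had a ratio of lowest DMSO to highest β-estradiol of 3.01, with 1.74 and 4.93 RPKM in DMSO and 0.577, 0.246 and 0.555 RPKM in β-estradiol. The locus closest outside had a ratio of 2.998, with 2.01 and 2.32 RPKM against 0.669, 0.3996 and 0.271 RPKM. Ratios of 3 to 3.5 were found for 51 loci of the set, and 72 loci outside it had ratios of 2.5 to 3. The lowest DMSO value inside was 1.03 RPKM, and the highest just under the floor was 0.992 RPKM. No locus was kept out by the length limit alone or by the upper limit alone. The floor alone kept out 280 loci with a ratio of 3 or more, with a median DMSO mean of 0.198 RPKM, and a maxMultiRatio above 0 kept out 34, with a median of 8.78 RPKM. Among these 34, DMSO 2 was above DMSO 1 for 27.

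The mirror of the rule, with β-estradiol and DMSO exchanged, was met by 56 of 12719 loci, or 0.440%. The same libraries enter both counts.

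Across all loci the induction was tested with limma on log2(RPKM + 0.5), for loci whose mean over the libraries reached 0.5 RPKM. At a Benjamini-Hochberg adjusted p under 0.05 it called 4.53% of 17429 loci in either direction and 2.95% lower. Of the 163 loci, 149 were among the latter. The rule used the same contrast, so nothing is read from this count. The 14 loci that did not pass had limma adjusted p values of 0.0511 to 0.0866. Their median change, -2.14, was close to the -2.16 of those that passed, and their DMSO libraries lay further apart. The median difference between DMSO libraries, in either direction, was 1.72 on the log2 scale in the 14 and 0.59 in the 149. DMSO 2 was the higher in 12 of the 14, among them the most abundant locus of the set. Another 365 loci were lower in limma without belonging to the set.

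Leaving out a library can only loosen the ratio and the floor. Apart from the upper limit, at least as many loci were therefore bound to meet the rule. On RPKM the count was 537 without DMSO 1 and 310 without DMSO 2. Leaving out β-estradiol 1 gave 243, leaving out β-estradiol 2 gave 179 and leaving out β-estradiol 3 gave 174. All 163 therefore stayed among these loci, except that 1 exceeded the upper limit on the mean when DMSO 1 was left out. Without DMSO 1 it found all 163 lower, where 13.9% of all tested loci were lower, and without DMSO 2 it found 138, against 2.83% of all. Both fits have a lone control library and take their estimate of the spread from the treated ones. It found 50 when β-estradiol 1 was left out (0.488% of all), and 13 when either β-estradiol 2 or β-estradiol 3 was (0.0861% of all in each).

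The control libraries differed at these loci more than at others. DMSO 2 was above DMSO 1 for 124 of the 163 loci (76.1%), and for 61.5% of the comparison loci. The median log2 ratio of DMSO 1 to DMSO 2 was -0.54 in the set and -0.16 in the comparison loci. DMSO 2 was higher by 1.5-fold or more for 78 loci of the set (47.9%), against 21.8% of the others. It was higher by 2-fold or more for 50 (30.7%), against 6.23% of the others. The opposite difference was no more frequent in the set, with DMSO 1 higher by 2-fold or more for 5 loci (3.07%), against 3.81%. There is 1 library on each side, so these differences have no test. The rule that parted the set from the comparison loci used these same DMSO values.

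The direction of this difference depended on which library chose the loci. With DMSO 1 left out of the rule, DMSO 2 was the higher for 92.7% of the 537 loci chosen. With DMSO 2 left out, it was the higher for 40.0% of the 310 loci chosen. Using both, the rule takes the lower of the DMSO values, whichever library holds it. In the deposited table named for TMM normalization, DMSO 2 was above DMSO 1 for 109 of the 163 loci, with a median log2 ratio of -0.44.

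**Figure D3:**
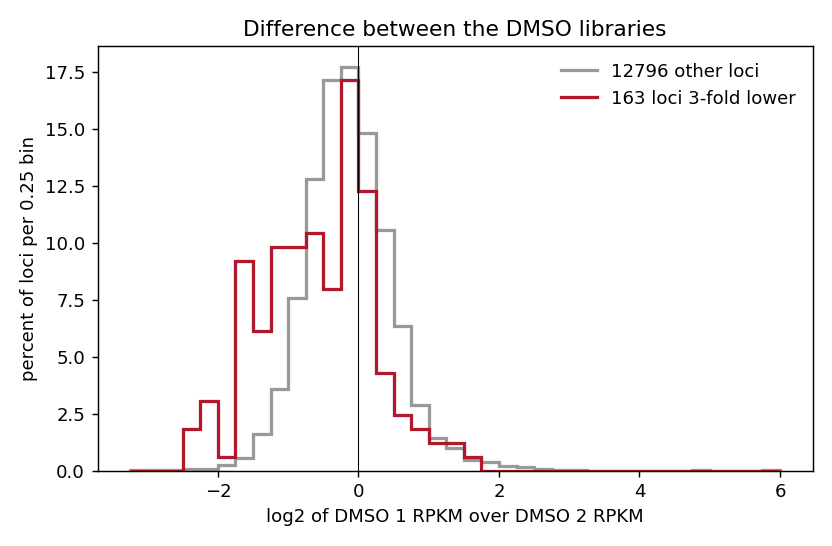
Distribution of the log2 ratio of DMSO 1 to DMSO 2 for the 163 loci (red) and the 12796 others (grey), as percent of loci in each bin. The red outline has a shoulder to the left, where DMSO 2 exceeded DMSO 1 by 2-fold or more for 50 loci.

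The loci of the set can be ordered by this ratio. In 78 loci DMSO 2 was higher by 1.5-fold or more, with medians of 3.37 RPKM in DMSO 1 and 8.18 RPKM in DMSO 2. Their medians in β-estradiol were 0.539, 0.559 and 0.558 RPKM. In 74 loci the DMSO libraries were within 1.5-fold, with medians of 3.49 and 3.77 RPKM, and with 0.569, 0.509 and 0.512 RPKM in β-estradiol. In 11 loci DMSO 1 was higher by 1.5-fold or more, with medians of 6.28 and 3.37 RPKM, and with 0.444, 0.311 and 0.353 RPKM in β-estradiol. The lower DMSO library thus had a median of 3.37 RPKM in both the first class and the last. The rule acts on that lower value and the classes are cut by the ratio, so nothing is read from this likeness. The residual share was 11.1%, 16.1% and 10.5% in the 3 classes.

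The extremes show how far the controls could part. A 3.541-kb locus under Pp3c20 had 1.86 RPKM in DMSO 1 and 10.3 RPKM in DMSO 2, the widest gap of the set. Its β-estradiol levels, 0.207, 0.200 and 0.219 RPKM, were almost equal. A 2.279-kb locus under Pp3c3 had the widest gap the other way, with 5.04 and 1.68 RPKM in DMSO and 0.423, 0.311 and 0.3996 RPKM in β-estradiol. In a 1.348-kb locus under Pp3c26 the DMSO libraries were equal, at 2.43 and 2.42 RPKM, and β-estradiol had 0.583, 0.527 and 0.616 RPKM.

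DMSO 1 and β-estradiol 1 were sequenced more deeply than the other libraries, with 56.3 and 56.0 M reads behind the RPKM (M for mega) against 37.3 to 39.4 M. The change was therefore also measured within each depth class, with no test, as each holds a single DMSO library. Across the 163 loci the median change was -1.77 from DMSO 1 to β-estradiol 1, and -2.37 from DMSO 2 to β-estradiol 2 and 3. It was larger in the shallower libraries for 130 loci and larger in the deeper ones for 33, and it differed by more than 1 on the log2 scale for 35. The median residual share was 16.8% in the deeper class and 10.7% in the shallower. Among loci with similar DMSO libraries the 2 medians were closer, -1.70 and -1.89. The ratio of the DMSO libraries is itself part of the difference between the 2 changes, so nothing is read from this.

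**Figure D4:**
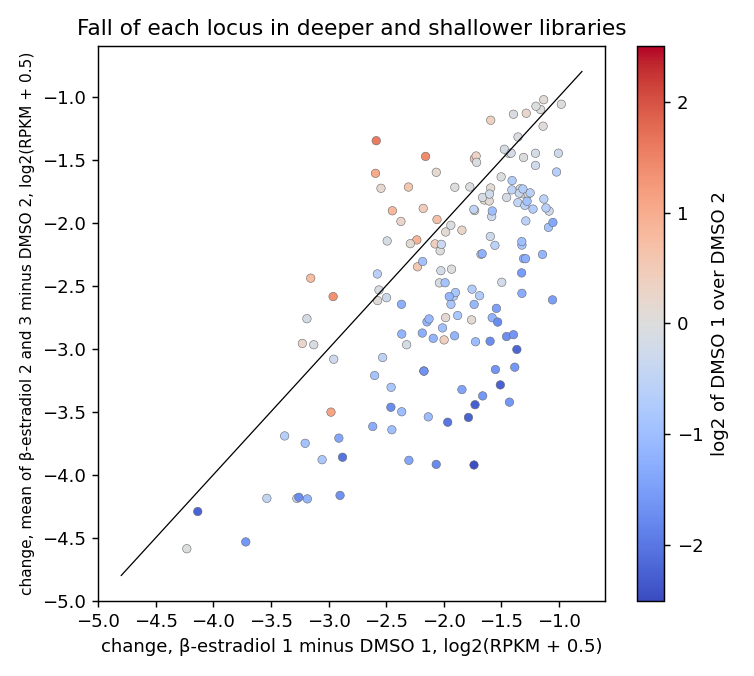
Change of each of the 163 loci on the log2(RPKM + 0.5) scale, in the deeper class on the x axis and in the shallower class on the y axis, coloured by the log2 ratio of DMSO 1 to DMSO 2. Points below the line, 130 of them, differed more between treatments in the shallower class, and many of these are blue, with DMSO 2 above DMSO 1. The ratio that sets the colour also enters the distance from the line.

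The treated libraries showed part of the same ordering. The log2 ratio of β-estradiol 1 to the mean of β-estradiol 2 and 3 was computed with 0.05 RPKM added. It correlated with that of DMSO 1 to DMSO 2 at r = 0.48 (rho 0.44) across the 163 loci and at r = 0.65 (rho 0.62) across the comparison loci. These values share libraries and carry no p. Where DMSO 2 was higher by 1.5-fold or more, β-estradiol 1 lay below the other treated libraries for 47 of 78 loci of the set (60.3%), against 86.7% of comparison loci of the same class. In the set as a whole β-estradiol 1 was above the mean of the others for 86 of 163. The part of the depth class in the difference between the DMSO libraries was not tested.

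β-estradiol 1 departed from its replicates by 2-fold or more at 21 loci, 12 higher and 9 lower. Such departures were rarer in the comparison loci. With DMSO libraries within 1.5-fold, 5 of 74 loci of the set were higher and 0 lower, against 25 and 13 of 8678. With DMSO 2 higher, it was 2 and 9 of 78, against 2 and 89 of 2789. With DMSO 1 higher, it was 5 and 0 of 11, against 141 and 3 of 1329. The part of low read counts was not tested. The widest departure in the set was at a 3.685-kb locus under Pp3c2. It had 13.2 and 6.13 RPKM in DMSO and 1.24, 0.0963 and 0.0727 RPKM in β-estradiol, from 256, 14 and 10 reads. The library numbered 1 was the highest of each group there. β-estradiol 2 and 3, by contrast, differed on average by little more than counting noise at these loci. At single loci they differed more, such as a 2.72-kb locus under Pp3c12 with 1.51 and 0.561 RPKM. Counting the 2 mates of a fragment once, the chi-square of β-estradiol 2 and 3 averaged 1.44 over 151 loci of the set. Over all loci with enough reads it averaged 1.95, where counting noise alone gives 1. β-estradiol 1 against 2 and 3 gave 9.44 and 9.31 in the set. DMSO 1 and 2 averaged 189 over the 163 loci and 49.4 over all 17501 loci with enough reads, with medians of 29.8 and 8.78. For the same fold difference chi-square grows with reads, and the set had more reads in DMSO than in β-estradiol. Its size is therefore not compared between the treatments. β-estradiol 2 and 3 are numbered as replicates and were kept apart. If they were repeats of 1 sample, the limma p values would be too small.

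Lengths were similar to those of the comparison loci, apart from the tails. The median was 2.58 kb in the set and 2.66 kb in the others, with quartiles of 1.88 and 3.35 kb against 1.91 and 3.64 kb. The tails were thinner in the set. Only 1 locus, of 0.677 kb, was under 1 kb, among 390 such loci that met the rule apart from the ratio (0.256%). Loci of 1 to 2 kb met the ratio in 1.55% of cases, those of 2 to 3 kb in 1.20% and those of 3 to 4 kb in 1.56%. From 4 to 5 kb the share was 0.900%, and from 5 kb upwards 0.705%. The shortest had 29.2 and 65.2 RPKM in DMSO and 6.47, 8.01 and 8.39 RPKM in β-estradiol. The longest, 7.189 kb under Pp3c7, had 2.65 and 5.70 RPKM in DMSO and 0.445, 0.550 and 0.432 RPKM in β-estradiol. Length and change were almost unrelated across the set (rho 0.08).

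The loci were spread over the whole genome as the ID prefixes give it. Each of the 27 prefixes that begin with Pp3c, the chromosomes of this ID scheme, held at least 3 of them. None lay under the other prefixes, which held only 13 of the 12959 loci that met the rule apart from the ratio. Pp3c2 and Pp3c3 held the most, 15 each. As a share of the loci that met the rule apart from the ratio, the set made up 0.606% under Pp3c15 to 2.60% under Pp3c25 (7 of 269). Pp3c5 followed with 13 of 539 (2.41%), Pp3c26 with 5 of 234 (2.14%), Pp3c3 with 15 of 723 (2.07%) and Pp3c2 with 15 of 805 (1.86%). No test was made of these shares, which rest on 3 to 15 loci each.

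In 3 pairs the loci followed each other directly by locus number. Members were thus 6 of the 326 listed loci next to a member (1.84%), and 121 of the 25570 next to a comparison locus (0.473%), a difference that was not tested. Within 5 listed loci of another lay 12 loci (7.36%). They formed 6 groups, each of 2 loci. At distances of 2, 3, 4 and 5, members were 0%, 1.23%, 0.613% and 0% of the listed loci around a member. Around a comparison locus they were 0.536%, 0.540%, 0.537% and 0.549%, and these differences were not tested. The strongest in expression was the adjacent pair under Pp3c18 at locus numbers 17700 and 17710. The first had 39.4 and 38.7 RPKM in DMSO and 10.2, 12.5 and 10.4 RPKM in β-estradiol. The second had 28.9 and 30.0 RPKM in DMSO and 8.10, 9.18 and 8.41 RPKM in β-estradiol. Both had equal controls and kept over 25% of the control level.

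The adjacent pair under Pp3c26, numbers 1350 and 1351, had DMSO means of 1.73 and 2.42 RPKM and changes of -1.49 and -1.44. Reads of overlapping genes are not separated without strand information, and whether these neighbours overlap was not tested. The adjacent pair under Pp3c2, numbers 5150 and 5170, had DMSO means of 2.996 and 1.13 RPKM and changes of -2.05 and -1.27. The pairs with other loci between them lay under Pp3c5 (numbers 4760 and 4840), Pp3c9 (23280 and 23450) and Pp3c11 (6590 and 6620). Under Pp3c9 the span held 3 tested loci and all 3 were lower in limma. Under Pp3c5 and Pp3c11 only the members were, of 5 and 4 tested loci in the span.

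The neighbours of a locus can themselves be members, so shares are given with and without members. Of all tested loci directly next to a member, 11 of 154 (7.14%) were lower in limma, against 2.95% of all tested loci and 2.22% of loci next to a comparison locus. Of these 11, 6 were members themselves. Without members, 5 of 148 (3.38%) were lower next to a member, and 250 of 16000 (1.56%) next to a comparison locus. The latter share was 1.77% to 2.12% at distances of 2 to 5 from a comparison locus. Of all 17429 tested loci, 365 were lower without being members. The differences between these shares were not tested. Over distances of 1 to 5 listed loci, 40 of 892 neighbours (4.48%) were lower and 7 (0.785%) higher. Around the comparison loci these shares were 2.66% and 1.51%. Without members, 28 of 880 (3.18%) were lower around the set, and 1.84% around the comparison loci. Over distances of 6 to 10, 2.31% were lower and 2.10% higher around members, and 2.96% and 1.67% around the others. Without members, 1.69% and 2.07% were lower. A neighbour of several members was counted for each. The median change of direct neighbours outside the set was -0.04.

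**Figure D5:**
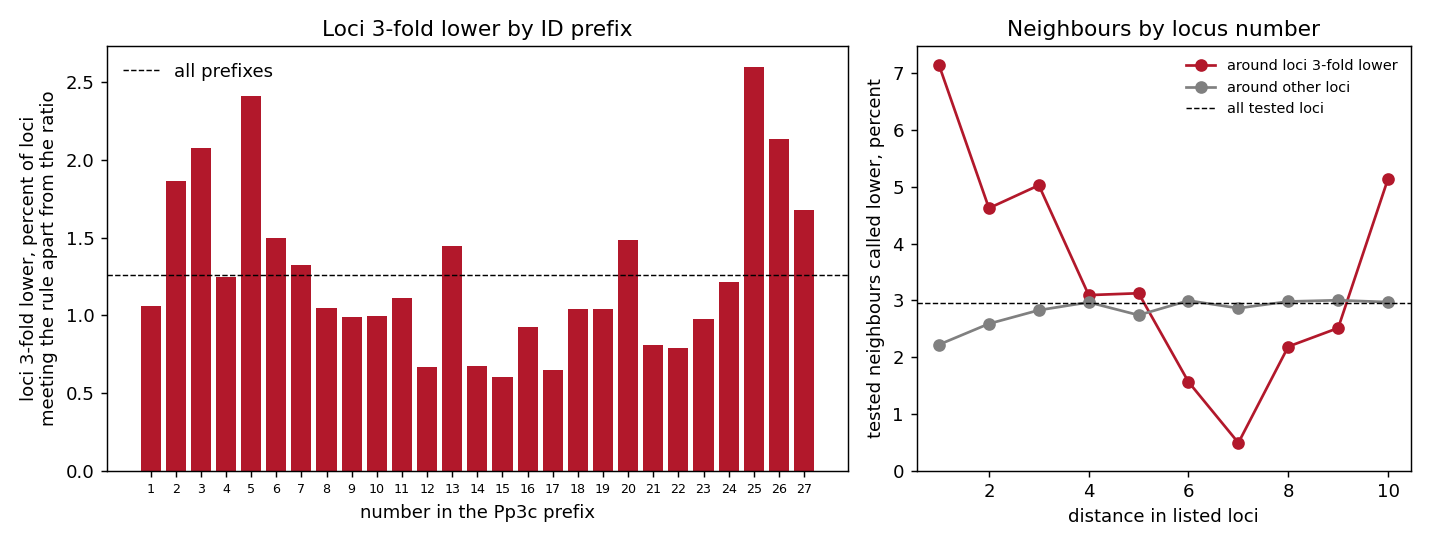
Left, the 163 loci as percent of the loci that met the rule apart from the ratio, by Pp3c prefix, with the share over all prefixes (1.26%) dashed. Right, percent of tested neighbours, members included, lower in limma at each distance in listed loci, around the 163 loci (red) and around the comparison loci (grey), with 2.95% of all tested loci dashed. The red line starts at 7.14% for direct neighbours and varies around the dashed line from a distance of 4 on.

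Summed over the set, transcripts made up 0.555% and 1.02% of all RPKM in DMSO 1 and 2, and 0.0905%, 0.103% and 0.1001% in β-estradiol 1, 2 and 3. The shares of the treated libraries were close together, and DMSO 2 had the highest. In the comparison loci DMSO 2 also had the highest share, 61.3%, against 54.0% in DMSO 1. β-estradiol 1, 2 and 3 had 54.9%, 58.0% and 58.0% there. Abundant loci weigh most in such sums, and 1 locus held 293 of the 2246 RPKM of the set in DMSO 2. The median SD of a locus in the set, on the log2(RPKM + 0.5) scale, was 0.40 for the 2 DMSO libraries and 0.16 for the 3 β-estradiol libraries. In the comparison loci it was 0.25 and 0.12. The added constant shrinks the SD at low levels, such as those of the set in β-estradiol. These SDs are therefore not compared between treatments or sets.

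Over all loci, reads in listed loci numbered 27.7 and 18.1 M in DMSO, and 27.3, 18.7 and 17.6 M in β-estradiol. Log2 levels of the 17429 tested loci correlated at r = 0.92 between the DMSO libraries and at 0.97 to 0.99 among the β-estradiol libraries. A DMSO with a β-estradiol library gave 0.86 to 0.93, the highest for DMSO 1 with β-estradiol 1, above the value of the DMSO pair. Loci are not independent replicates, so these correlations carry no p.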

How the data were processed

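Poly-A RNA was fragmented, primed with random primers and sequenced as paired reads of 100 bp on the DNBseq platform, per the labels' protocols, which describe no step that marks strand. RSEM, Bowtie2, Cufflinks, HISAT2 and StringTie are listed in the submitters' processing notes. The roles and versions of these tools and the genome build were not given in the sources used here. RPKM per locus was deposited by the authors, with a second table of RPKM-like values named for TMM normalization, which served as an alternative. Per the file headers, each locus has a length in kb and a fraction, maxMultiRatio, without a definition. RPKM times length came in whole multiples of 1 step per library for 100% of loci whose maxMultiRatio was 0 and that had a read (tolerance 0.01 of a read). Over all loci with a read it was 91.6 to 92.6%. The fraction is therefore read as a mark of multiply mapped reads, and reads were recovered from the steps. In every library loci with 2 reads outnumbered those with 1 or 3, so mates appear to be counted separately.

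Induction was tested over all loci with limma (version 3.58.1, under R 4.3.3). The model was fitted to log2(RPKM + 0.5) for loci averaging 0.5 RPKM or more, with moderation both trended and robust, a two-sided test and no covariate. It was also run on simulated libraries that varied alike in both groups and at every locus. The DMSO libraries here differed more than the treated ones, so nothing is read from that run. The rule and the lists were chosen with earlier results of these data known, and the members are described without a test. The 2 members with the largest change were named by ID, by a rule set down with the design. No sequence was matched to the IDs.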

Additional observations from a re-analysis of the deposited data

How the results depend on the processing

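Over all loci limma called 790 changed (276 higher, 514 lower). Without a filter on low values it called 494, with the replicate number as a block 1801, and with the depth class as a term 4104. Leaving out 1 library gave 32 to 3762. Of the 163 loci, 149 were lower in limma, 120 to 163 under the alternatives that keep all libraries, and 13 to 163 when a library was left out. With the replicate block it was 160. As a check of pairing, the deviation of each library from its group's mean was correlated across loci. It gave 0.615 for DMSO 1 with β-estradiol 1, 0.541 for DMSO 2 with β-estradiol 2 and 0.406 for DMSO 2 with β-estradiol 3, and with 2 DMSO libraries these are not separate evidence. The labels do not say what a replicate number marks, so the numbers were not taken as pairs. The rule gave 377 loci with a ratio of 2 and 85 with a ratio of 4, and 209 on the TMM table (155 shared with the 163). It gave 174 to 537 with a library left out, which loosens the rule. The TMM table is scaled to reads in loci and its values are higher, which lowers the floor. Adjacent pairs, 3 in the set, numbered 6 on the TMM table, 13 with a ratio of 2, 0 with a ratio of 4, 1 with a floor of 2 RPKM and 3 to 24 with a library left out. The median change of -2.15 was -2.65 with a pseudocount of 0.1 and -1.75 with 1, and -2.31 to -1.81 with a library left out. The cause of these differences was not tested, apart from the looser or stricter rules themselves. No change reversed its sign in the settings run, which the rule itself fixes when a library is left out or the pseudocount changed. With 2 and 3 libraries, the residual levels of loci with few reads are limited by counting.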
